A study of Mus musculus with 8 samples.

Results

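Lysosomal hydrolases and lysosomal membrane proteins were examined in mouse embryonic fibroblasts (MEFs) as a set of 47 genes. The genes were chosen by function, with earlier results of these data known, and listed by symbol. They comprised 12 peptidases, 11 glycosidases, 5 sulfatases, 8 genes of lipid breakdown, 1 phosphatase, 9 membrane proteins and 1 sorting receptor. All 47 symbols were found among the 49492 gene symbols of the deposited table. All 47 also passed the filter on low values, as did 16232 genes in all, so no member was lost to low expression.

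RNA-seq was performed on polyA RNA from 8 libraries in 4 groups of 2 replicates. The MEFs came from Pontin f/f mice by the 3T3 protocol and were made to express Flag-tagged Pontin by lentivirus, followed by hygromycin selection. Pontin is the product of Ruvbl1 and works as an ATPase within chromatin remodellers, and infection with Cre virus removes its endogenous copy in these cells. The study asked how methylation of Pontin at a pair of arginines bears on the transcriptional response to glucose starvation. The groups were Pontin WT in normal medium, Pontin WT under glucose starvation, Pontin RA in normal medium and Pontin RA under glucose starvation, where RA denotes Pontin with both arginines replaced by alanine. Normal medium was DMEM with fetal bovine serum, and starvation medium was DMEM without glucose and with dialyzed serum. The duration of starvation before RNA extraction was not given in the sources used here. All 4 groups shared the floxed background and the added Pontin, and each genotype was a stable line, so the line and the form of Pontin it carries cannot be told apart. The labels do not say that replicates were separate cultures, and the general statement of the study that experiments were repeated independently does not name these libraries, so p-values measure the spread between these libraries, which may be technical. The table names its columns minus and plus, and minus was taken to mean normal medium and plus glucose starvation.

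Lysosomes break down proteins, glycans and lipids that reach them by endocytosis and autophagy. Most soluble hydrolases are tagged with mannose 6-phosphate in the Golgi and carried onward by mannose 6-phosphate receptors, whereas membrane proteins line the limiting membrane and export the products of digestion. Many lysosomal genes carry the CLEAR element, an extended E-box bound by TFEB and related factors, and their transcription is known to rise when nutrients are withdrawn.

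Libraries held 43205841 to 56363034 recovered reads, and the member with the fewest had 43 reads in the library where it was lowest. Values are read counts scaled to a common library size (CPM). Ruvbl1 read 27.6 to 28.4 CPM across the WT libraries of both media, 36.8 and 32.0 in RA with glucose, and 45.0 and 42.9 in RA without it, and this value does not separate the added copy from the endogenous one. The defining fibroblast genes Col1a1, Col1a2, Vim, Fn1 and Thy1 were abundant, although Lum stayed below 1. Starvation lowered Col1a1, with group means of 1688 CPM in normal WT, 204 in starved WT, 1570 in normal RA and 640 in starved RA. In that order Col1a2 read 2102, 271, 2022 and 910, Col3a1 284, 15.8, 239 and 45.1, and Pdgfra 20.8, 2.33, 17.7 and 5.79. These falls were larger in WT, but that of Vim was larger in RA (3189, 2148, 3443 and 1834). Dcn (5.9, 7.44, 13.5 and 34.9) and Fn1 (2357, 2413, 2370 and 3173) did not fall. The summed fibroblast markers (10 genes) ran from 9918 to 10246 CPM in the normal groups, 5313 to 5406 in starved WT and 7042 to 7059 in starved RA. Since many of the members are abundant in macrophages and osteoclasts, markers of those cells were read as well. Of 10 macrophage markers 7 were below 1 CPM in every library, with Ptprc and Tyrobp at 0 in 7 of 8 libraries, and Csf1r, Cd14 and Cx3cr1 were above 1. The macrophage sum was 127 and 128 in WT with glucose, 188 and 184 without it, and in RA 136 and 137 against 145 and 148, most of it Cx3cr1. The osteoclast sum (7 genes, 6 below 1 CPM in every library) ran from 8.99 to 11.3 in normal WT, 2.85 to 2.98 in starved WT, 13.6 to 14.9 in normal RA and 8.92 to 9.4 in starved RA, nearly all of it Itgb3, with Dcstamp at 0 throughout. The endothelial sum (6 genes, 3 below 1 in every library) ran from 2.82 to 3.74 in normal WT, 23.0 to 24.1 in starved WT, 2.48 to 3.75 in normal RA and 9.23 to 10.1 in starved RA. The endothelial gain came from Vwf, Kdr and Tek, while the defining genes Pecam1, Cdh5 and Emcn stayed below 1. The epithelial sum reached at most 3.68. In bulk RNA a change in the number of cells of a type and a change in RNA per cell cannot be told apart, and the part of these marker differences in the results below was not tested. In the GENCODE M21 annotation (GRCm38) the exons of 17 members overlap those of another gene, on the same strand for 3 of them.

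Transcripts of the 47 genes took up more of the libraries under starvation in both genotypes, and the gain was larger in WT. Their summed value was 4750 ± 66 CPM in normal WT and 8695 ± 44 in starved WT (SD, n = 2). In RA cells it was 5318 ± 63 in normal medium and 8432 ± 64 under starvation (SD, n = 2). RA therefore started above WT and ended below it, and no replicate ranges overlapped. Expressed as a share of all recovered reads, the members took 0.489% in normal and 0.851% in starved WT, and 0.53% and 0.839% in RA. The sum gained 3945 CPM in WT and 3114 in RA. Peptidases supplied 39.3% of the gain in WT and 31.2% of that in RA, membrane proteins 33.1% and 33.8%. Lamp1 by itself supplied 22.1% and 22%.

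Per kilobase of exon, Lamp1 (a heavily glycosylated protein of the limiting membrane) stood first in all 4 groups, at 313 CPM per kb in normal WT and 639 in starved WT. Psap, the precursor of the saposin activators, followed at 218 and 335. Laptm4a, Cd63, Ctsd, Ctsb, Asah1 and Ctsl completed the 8 highest in normal WT, and the same 8 came out when the longest transcript replaced the union of exons. The lowest were Ctsf, at 0.456 in normal WT, and Ctso, at 0.582. Starvation reordered the middle of the list. Ctns moved from rank 40 to rank 18 in WT, but only to rank 31 in RA, and Gusb moved from rank 17 to rank 33 in WT and from 19 to 35 in RA.

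**Figure D1:**
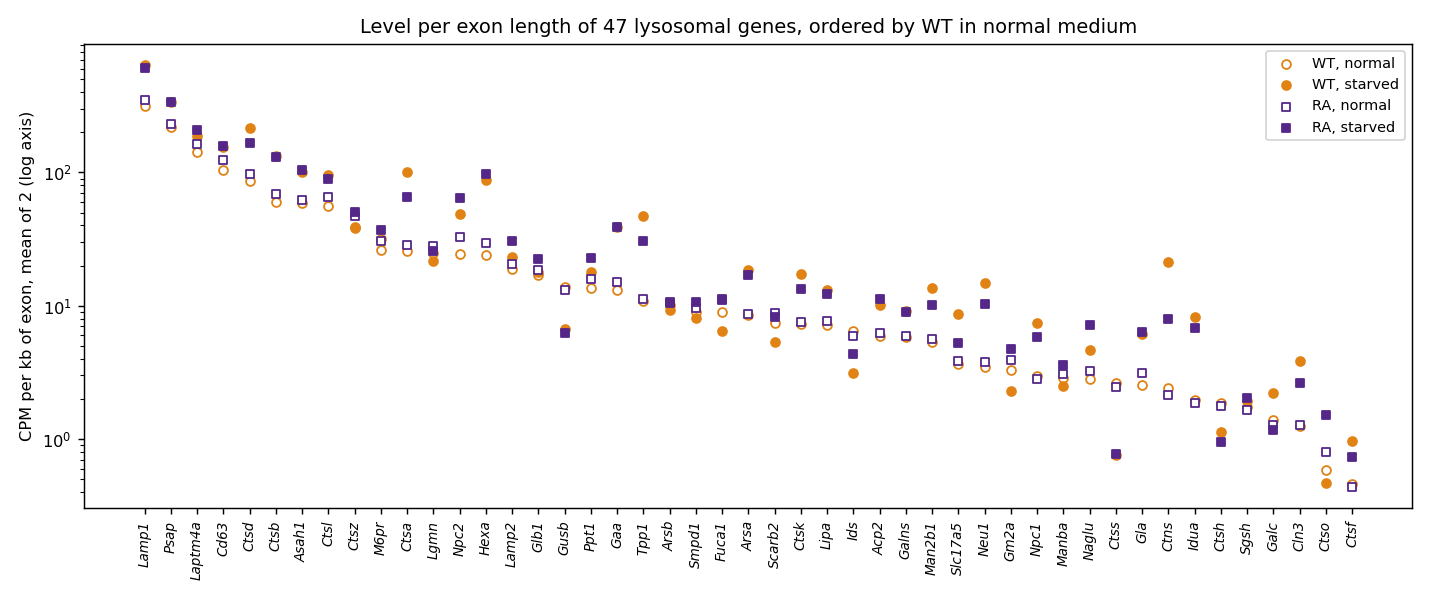
Level of each of the 47 lysosomal genes per kilobase of exon in the 4 groups, as CPM per kb on a log axis (mean of 2 libraries), ordered by normal WT. Lamp1 was highest in every group, and Ctns climbed from 2.4 to 21.1 CPM per kb in WT but from 2.15 to 7.99 in RA.

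The promoters were searched for the letters CACGTG (the E-box core of the CLEAR element), TCACGTGA (which contains it) and GTAAACA (a forkhead core) on both strands. RefSeq windows on GRCm38.p6, from 250 bases before the transcript start to 50 after, were matched for 41 of the 47 genes. CACGTG stood in 13 of 41 (31.7%), against 8.09% of 27025 genes with a window and 11.5% of the 10351 tested genes with one. TCACGTGA stood in 4 of 41 (9.76%), namely Cln3, Ctsa, Ctsd and Gla, against 1.12% of all genes and 2.13% of the tested ones. GTAAACA stood in 0 of 41, against 4.05% and 3.05%, which says only that these letters are not in these windows. The 250 bases before the start are printed below for the 4 genes with TCACGTGA, for Lamp1, which held the most copies of CACGTG, and for Ctns, which rose most and held none. For Ctns this covers only these letters in these windows, and the study assayed a CLEAR motif of that gene by ChIP. Each printed stretch runs 5′ to 3′ along the gene with CACGTG in capitals. The windows lie at chr8:13158911-13159160 on the plus strand for Lamp1, chr2:164833523-164833772 on the plus strand for Ctsa, chr7:126583237-126583486 on the minus strand for Cln3, chr7:142387828-142388077 on the minus strand for Ctsd, chrX:134601006-134601255 on the minus strand for Gla and chr11:73199020-73199269 on the minus strand for Ctns.
Lamp1: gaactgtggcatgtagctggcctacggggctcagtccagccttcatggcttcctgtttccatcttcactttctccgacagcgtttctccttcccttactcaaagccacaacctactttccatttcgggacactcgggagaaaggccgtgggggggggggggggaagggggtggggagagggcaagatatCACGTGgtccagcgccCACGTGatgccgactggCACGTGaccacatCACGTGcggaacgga
Ctsa: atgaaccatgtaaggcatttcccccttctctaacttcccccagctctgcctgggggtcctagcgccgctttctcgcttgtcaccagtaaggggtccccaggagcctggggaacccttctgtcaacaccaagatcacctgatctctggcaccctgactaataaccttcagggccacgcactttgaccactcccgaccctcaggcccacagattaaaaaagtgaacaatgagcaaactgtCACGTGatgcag
Cln3: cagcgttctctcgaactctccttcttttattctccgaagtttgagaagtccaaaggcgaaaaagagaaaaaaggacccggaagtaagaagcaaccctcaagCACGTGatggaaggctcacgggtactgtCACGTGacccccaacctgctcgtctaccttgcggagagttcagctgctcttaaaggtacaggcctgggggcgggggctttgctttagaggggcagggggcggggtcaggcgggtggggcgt
Ctsd: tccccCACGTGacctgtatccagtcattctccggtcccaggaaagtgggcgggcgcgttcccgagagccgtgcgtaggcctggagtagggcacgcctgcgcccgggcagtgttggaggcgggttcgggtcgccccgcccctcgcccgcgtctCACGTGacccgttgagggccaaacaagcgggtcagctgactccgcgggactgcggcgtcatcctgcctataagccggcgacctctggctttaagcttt
Gla: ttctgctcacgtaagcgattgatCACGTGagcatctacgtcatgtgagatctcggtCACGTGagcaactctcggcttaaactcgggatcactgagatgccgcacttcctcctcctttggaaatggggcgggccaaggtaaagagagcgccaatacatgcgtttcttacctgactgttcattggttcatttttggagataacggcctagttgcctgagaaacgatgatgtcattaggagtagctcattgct
Ctns: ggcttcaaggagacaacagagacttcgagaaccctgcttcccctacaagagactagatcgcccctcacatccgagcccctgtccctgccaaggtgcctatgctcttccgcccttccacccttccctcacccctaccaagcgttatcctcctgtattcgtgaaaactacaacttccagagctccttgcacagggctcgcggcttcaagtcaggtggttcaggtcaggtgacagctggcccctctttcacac
The 4 copies in Lamp1 began 61, 45, 28 and 15 bases before the start. Ctsa held its first copy 12 bases before the start and another just after it, outside the printed stretch. Ctsa, Cln3 and Ctns each had 2 windows, and the one with more copies of CACGTG, or otherwise the first, is printed. The other windows of Ctsa and Cln3 held none. In Cln3 the copies began 149 and 121 bases upstream, in Ctsd 245 and 98, and in Gla 227 and 194. The 13 genes with CACGTG had a median log2 response of 1.03 in WT and 0.79 in RA, and the 28 without it 0.47 in both genotypes, given as a description with no test.

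Whether starvation moved the members was tested in each genotype. All log2 differences below are on the log2(CPM + 1) scale, which understates the change of low genes, and a gene was called at a limma BH-adjusted p under 0.05 over all 16232 genes. In WT 32 of 47 members rose and 11 fell. Among all genes 78.6% were called, with 39.3% higher and 39.2% lower. The median response over the members was 0.66, against 0.00 over all genes. In RA 37 members rose and 5 fell, with a median of 0.57 against 0.01. There 68.7% of all genes were called, 35.0% higher and 33.7% lower. The share of members that rose was thus above the background in both genotypes, at 68.1% in WT and 78.7% in RA, whereas the shares that fell, 23.4% and 10.6%, were below it. The members were chosen with earlier results of these data known, so shares set against the background here and below are not independent evidence. A rise of at least 2-fold on this scale occurred for 17 members in WT and 9 in RA, or 36.2% and 19.1%, against 7.84% and 4.44% of all genes. These comparisons do not share libraries with each other, but the tests of genotype below use the same libraries again.

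The study lists 6 of the members, Ctsa, Ctsf, Cln3, Tpp1, Slc17a5 and Ctns, in a cluster it drew from these same samples. Starvation raised each of the 6 in WT and in RA, and each was lower in RA than in WT without glucose, which is not independent evidence of a direction. Among the 41 others, 26 rose and 11 fell in WT, and 31 rose and 5 fell in RA.

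Whether the response differed between the genotypes was tested by the interaction, defined as the RA response less the WT response. It was called for 27 of 47 members, 17 lower in RA and 10 higher. Among all genes 50.6% were called, 26.1% lower and 24.5% higher, so the members' 36.2% lower and 21.3% higher stood close to the background for the higher side and above it for the lower side. The median interaction was -0.07, against -0.01 over all genes. Outside the list of the study the split was 12 lower and 10 higher of 41. When the columns were scaled to equal totals the split over all members became 13 lower and 12 higher. The share of higher calls was then 48.0% in place of 37.0% among members, and 58.1% in place of 48.4% among all genes. The median interaction of all genes moved by 0.06. The 17 members with a lower response in RA had a median response of 1.3 in WT and 0.84 in RA. For the 10 with a higher response these medians were -0.20 and 0.24. Of the 31 members that rose in both genotypes, 16 rose less in RA, 2 rose more and 13 showed no called difference. The matching split over all genes was not computed.

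**Figure D2:**
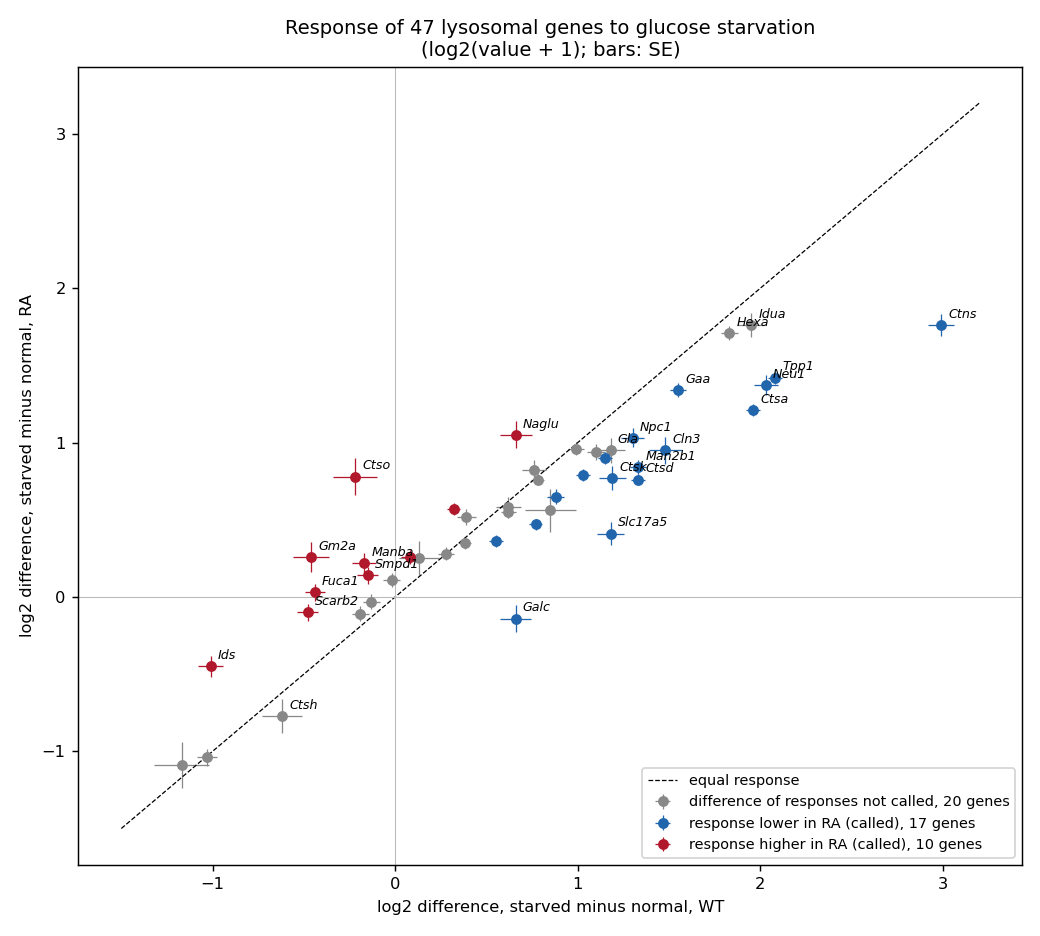
Response to glucose starvation (log2(CPM + 1), starved minus normal) of the 47 genes in WT on the horizontal axis and RA on the vertical axis, with SE bars; the dashed line marks equal responses. The 17 genes called lower in RA lie under the line, with Ctns farthest out at 2.99 and 1.76, and the 10 called higher lie above it.

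Peptidases were led by the cathepsins, the main proteases of the lysosome. Of 12, 7 rose and 3 fell in WT, 9 rose and 3 fell in RA, and the interaction was lower for 6 and higher for 1. Ctsa, the serine carboxypeptidase that also protects beta-galactosidase and neuraminidase, read 121 and 121 CPM with glucose and 472 and 477 without it in WT, against 129 and 139 with glucose and 311 and 309 without it in RA. Every starved library was above every normal one, and starved RA lay between the normal and the starved WT libraries. Its response was 1.96 in WT and 1.21 in RA, and the interaction was -0.76 (SE 0.056, limma BH-adjusted p = 1.05e-08). Tpp1, which removes tripeptides from the ends of proteins, gave the same order. It read 56.4 and 56.5 with glucose and 245 and 239 without it in WT, against 58.9 and 57.0 with glucose and 157 and 157 without it in RA. The normal libraries of the genotypes lay close together, within 56.4 to 58.9, and the starved ones were far apart. Its interaction was -0.66 (SE 0.055, limma BH-adjusted p = 4.92e-08). Ctsb, Ctsd, Ctsk and Ctsl rose in both genotypes and less in RA, with interactions from -0.57 for Ctsd to -0.25 for Ctsb. The exons of Ctsd share 34.4% of their bases with Gm49369 on the same strand, and those of Ctsl 26.8% with Gm47123 on the other, so reads of these pairs may not be separable.

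The other peptidases did not follow this order, except Ctsf, whose interaction was not called. Ctso, a low-abundance cysteine cathepsin, read 2.78 and 3.18 CPM with glucose and 2.26 and 2.56 without it in WT, against 4.41 and 3.84 with glucose and 8.19 and 7.39 without it in RA. Starved RA stood above all other libraries, and starved WT below them. The response was -0.22 in WT (SE 0.12, limma BH-adjusted p = 0.10) and 0.78 in RA, and the interaction of 1.0 (SE 0.17, limma BH-adjusted p = 0.000124) was the highest of the 47. Ctss and Ctsh, cathepsins best known from antigen-presenting cells and lung, fell in both genotypes. Ctss read 3.50 and 3.63 with glucose and 0.922 and 1.15 without it in WT, against 2.87 and 3.84 with glucose and 0.842 and 1.26 without it in RA. Starved libraries were below all normal ones and the genotypes overlapped. Its response was -1.17 in WT and -1.09 in RA, and the interaction of 0.08 had a 95% interval from -0.36 to 0.52. Ctsh read 8.26 and 8.43 with glucose and 5.41 and 4.79 without it in WT, against 7.72 and 8.29 with glucose and 3.80 and 4.79 without it in RA, with responses of -0.62 and -0.77. Again the media were separate and the genotypes were not. Ctsf read 2.74 and 1.85 with glucose and 4.65 and 5.15 without it in WT, against 2.16 and 2.25 with glucose and 3.56 and 3.88 without it in RA. Its rise was 0.85 in WT and 0.56 in RA, and the interaction of -0.29 (SE 0.19, limma BH-adjusted p = 0.22) was not called. Lgmn, the asparaginyl endopeptidase that processes cathepsins, fell slightly in both genotypes, and Ctsz rose in RA by 0.11. The RA calls of both held under 11 of 17 alternatives and were lost without either of the starved RA libraries.

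**Figure D3:**
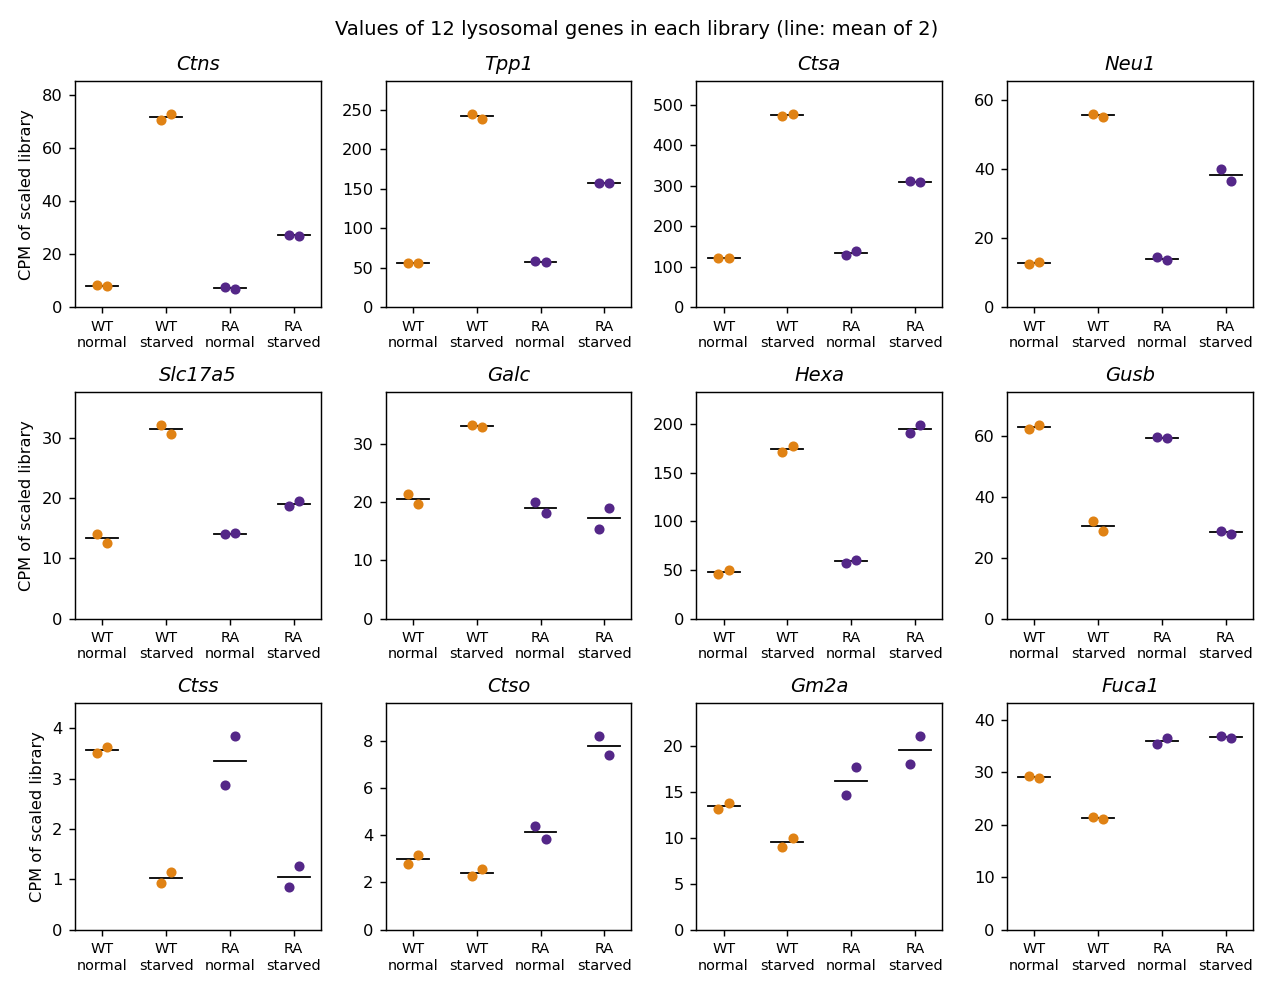
CPM of 12 lysosomal genes in each of the 8 libraries, with a line at the mean of 2, each panel on its own axis from 0. Ctns, Tpp1, Ctsa, Neu1, Slc17a5 and Galc were highest in starved WT, Ctso, Gm2a and Hexa were highest in starved RA, and Gusb and Ctss were lower in starved than in normal libraries of both genotypes.

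Glycosidases remove sugars from glycoproteins, glycosaminoglycans and glycolipids. Of 11, 7 rose and 3 fell in WT, 9 rose and 1 fell in RA, and the interaction was lower for 3 and higher for 4. Neu1, the sialidase held in a complex with Ctsa, read 12.6 and 13.1 CPM with glucose and 56.0 and 55.2 without it in WT, against 14.6 and 13.7 with glucose and 40.0 and 36.7 without it in RA. Starved WT was highest in both libraries. The response of 2.03 in WT and 1.37 in RA corresponded to an interaction value of -0.65 (SE 0.093, limma BH-adjusted p = 1.93e-05). Hexa, the alpha subunit of beta-hexosaminidase, read 46.3 and 50.3 with glucose and 171 and 177 without it in WT, against 57.1 and 60.5 with glucose and 191 and 199 without it in RA. Here the RA libraries were above the WT libraries in both media. Its responses of 1.83 and 1.71 were not called different (interaction -0.12, 95% interval from -0.26 to 0.03). Idua, which removes iduronic acid from heparan and dermatan sulfate, read 8.09 and 8.28 with glucose and 35.7 and 33.2 without it in WT, against 7.61 and 8.04 with glucose and 28.2 and 29.5 without it in RA. Both starved groups stood far above the normal ones, and the interaction of -0.19 (SE 0.11, limma BH-adjusted p = 0.155) was not called. Gaa, the acid alpha-glucosidase that digests glycogen in lysosomes, rose by 1.55 and 1.34 in WT and RA, and Man2b1, an alpha-mannosidase, by 1.33 and 0.84, both with a called lower response in RA. The interaction of Gaa was lost under 3 of 16 alternatives, at -0.21 to -0.13, among them equal column totals and leaving out starved WT replicate 1. Glb1, the beta-galactosidase, rose by 0.26 in RA, against 0.08 in WT (limma BH-adjusted p = 0.138). Its interaction of 0.19 was lost under 7 of 16 alternatives, at 0.15 to 0.20, among them leaving out either normal WT library, starved WT replicate 1, normal RA replicate 1 or starved RA replicate 2.

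Gusb, the beta-glucuronidase, moved against most of its group. It read 62.3 and 63.5 CPM with glucose and 31.9 and 28.9 without it in WT, against 59.5 and 59.2 with glucose and 28.8 and 27.8 without it in RA. The fall was -1.03 in WT and -1.04 in RA, and the interaction of -0.02 had a 95% interval from -0.18 to 0.15. Fuca1, the alpha-L-fucosidase, read 29.4 and 29.0 with glucose and 21.4 and 21.2 without it in WT, against 35.4 and 36.6 with glucose and 36.9 and 36.6 without it in RA. It fell by 0.44 in WT, while in RA the difference was 0.03 (SE 0.056, limma BH-adjusted p = 0.658), and the interaction of 0.47 (SE 0.079, limma BH-adjusted p = 0.000107) was called. Manba, the beta-mannosidase, was called in opposite directions. It read 19.8 and 20 with glucose and 18.0 and 17.2 without it in WT, against 21.3 and 21.4 with glucose and 25 and 25.1 without it in RA. The response was -0.17 in WT (limma BH-adjusted p = 0.0248, not called without either normal WT library or without starved WT replicate 2) and 0.22 in RA. Naglu, an alpha-N-acetylglucosaminidase of heparan sulfate breakdown, rose by 0.66 in WT and by 1.05 in RA, and its interaction of 0.39 was not called without starved RA replicate 1 (0.34). Gla, the alpha-galactosidase with a pair of E-boxes printed above, read 8.35 and 8.18 with glucose and 19.7 and 20.3 without it in WT, against 10 and 10.5 with glucose and 21.6 and 20 without it in RA. The starved libraries of the genotypes overlapped, and the interaction of -0.23 (SE 0.11, limma BH-adjusted p = 0.102) was not called.

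Sulfatases take sulfate groups off glycosaminoglycans and sulfatides. Of 5, Arsa rose by 1.1 and 0.94 in WT and RA and Galns by 0.62 and 0.58, Ids fell in both genotypes, Arsb fell in WT and Sgsh passed the test in neither. Ids, the iduronate 2-sulfatase, read 32.1 and 34.3 CPM with glucose and 15.3 and 16.7 without it in WT, against 31.6 and 29.2 with glucose and 22.3 and 21.7 without it in RA. Starved RA lay between starved WT and the normal libraries. The fall of 1.01 in WT and of 0.45 in RA corresponded to an interaction value of 0.56 (SE 0.097, limma BH-adjusted p = 0.000141). It is the only sulfatase with a called interaction. The exons of Arsb and Sgsh overlap genes on the opposite strand by 32.3% and 21.6%, and the handling of strand by the read counter was not given in the sources used here.

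Genes of lipid breakdown comprised hydrolases, their activator proteins and the cholesterol carrier Npc2. Of 8, 6 rose and 2 fell in WT, 7 rose and none fell in RA, and the interaction was lower for 2 and higher for 2. Galc, which removes galactose from galactosylceramide, read 21.5 and 19.8 CPM with glucose and 33.3 and 33.0 without it in WT, against 20 and 18.1 with glucose and 15.5 and 19.0 without it in RA. Only starved WT stood apart, and the RA libraries overlapped between media. The response was 0.66 in WT and -0.14 in RA (SE 0.085, limma BH-adjusted p = 0.149), and the interaction was -0.80 (SE 0.12, limma BH-adjusted p = 3.74e-05). Without starved RA replicate 2 the RA difference became a called fall of -0.28. Gm2a, the activator that presents GM2 ganglioside to hexosaminidase, moved the other way. It read 13.2 and 13.8 with glucose and 9.05 and 10 without it in WT, against 14.7 and 17.7 with glucose and 18.1 and 21.1 without it in RA. It fell by 0.46 in WT and rose by 0.26 in RA, and the interaction was 0.72 (SE 0.14, limma BH-adjusted p = 0.000405). The rise in RA was no longer called without normal RA replicate 1 (0.13) or without starved RA replicate 2 (0.15). Smpd1, the acid sphingomyelinase, read 28.9 and 31.0 with glucose and 27.3 and 26.6 without it in WT, against 31.8 and 32.3 with glucose and 35.1 and 35.6 without it in RA. Its responses of -0.15 and 0.14 were both called and both small. The fall in WT was no longer called without normal WT replicate 2 (-0.10) or starved WT replicate 2 (-0.13), and the rise in RA was not called when any 1 of the 4 RA libraries was left out (0.13 to 0.15). Npc2 read 129 and 137 with glucose and 258 and 273 without it in WT, against 174 and 183 with glucose and 350 and 345 without it in RA. It rose in both genotypes, by 0.99 and 0.96, and the RA libraries were above those of WT in each medium. Asah1 and Psap rose in both genotypes by 0.55 to 0.78, Ppt1 by 0.39 in WT and 0.52 in RA, all with no called interaction, and Lipa, the acid lipase, rose less in RA (0.65 against 0.88), a difference that was not called with equal column totals.

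Membrane proteins mostly rose under starvation. Of 9, 8 rose in WT and 8 in RA, and the interaction was lower for 6 and higher for 2. Ctns, the transporter that exports cystine, read 8.31 and 7.98 CPM with glucose and 70.6 and 72.7 without it in WT, against 7.61 and 6.96 with glucose and 27.2 and 27.0 without it in RA. The mean rose 8.8-fold in WT and 3.72-fold in RA. Starved RA libraries were above all normal ones and below both starved WT libraries. The interaction of -1.23 (SE 0.10, limma BH-adjusted p = 3.49e-08) was the lowest of the 47, and over 16 alternatives it stayed between -1.28 and -1.16. Slc17a5, which exports sialic acid, read 14.1 and 12.6 with glucose and 32.1 and 30.7 without it in WT, against 14.0 and 14.2 with glucose and 18.6 and 19.5 without it in RA. It rose by 1.18 in WT and 0.41 in RA (interaction -0.77, SE 0.10, limma BH-adjusted p = 1.36e-05). Cln3, the membrane protein altered in a juvenile form of neuronal ceroid lipofuscinosis, read 7.67 and 6.89 with glucose and 22.4 and 21.8 without it in WT, against 7.01 and 7.69 with glucose and 15.0 and 15.2 without it in RA. Its order was that of Ctns, and the interaction was -0.53 (SE 0.12, limma BH-adjusted p = 0.00183).

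The structural membrane proteins were split. Lamp1 read 834 and 841 CPM with glucose and 1711 and 1707 without it in WT, against 936 and 935 with glucose and 1647 and 1595 without it in RA. Both genotypes ended near each other from different starting levels, with responses of 1.03 and 0.79 and an interaction at -0.24 (SE 0.056, limma BH-adjusted p = 0.00211). Lamp2, its paralogue required for autophagosome maturation, read 175 and 182 with glucose and 225 and 221 without it in WT, against 198 and 195 with glucose and 291 and 295 without it in RA. Starved RA was highest, and the interaction of 0.25 (SE 0.052, limma BH-adjusted p = 0.000753) had the opposite sign to that of Lamp1. Scarb2, the receptor that carries glucocerebrosidase to lysosomes, fell by 0.48 in WT and had a difference of -0.10 in RA that was not called. Cd63 and Npc1, the membrane partner of Npc2, rose less in RA, by 0.36 against 0.55 and by 1.03 against 1.3. The interaction of Cd63 was not called under 2 of 16 alternatives (-0.19 and -0.12), equal column totals and no variance trend. That of Npc1 was not called under 7 of 16, at -0.27 to -0.16, among them leaving out normal WT replicate 2, starved WT replicate 1, normal RA replicate 2 or starved RA replicate 2. Laptm4a, the sorting receptor M6pr and the acid phosphatase Acp2 rose in both genotypes, by 0.28 to 0.82, and their interactions lay between -0.03 and 0.06 with none called.

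**Figure D4:**
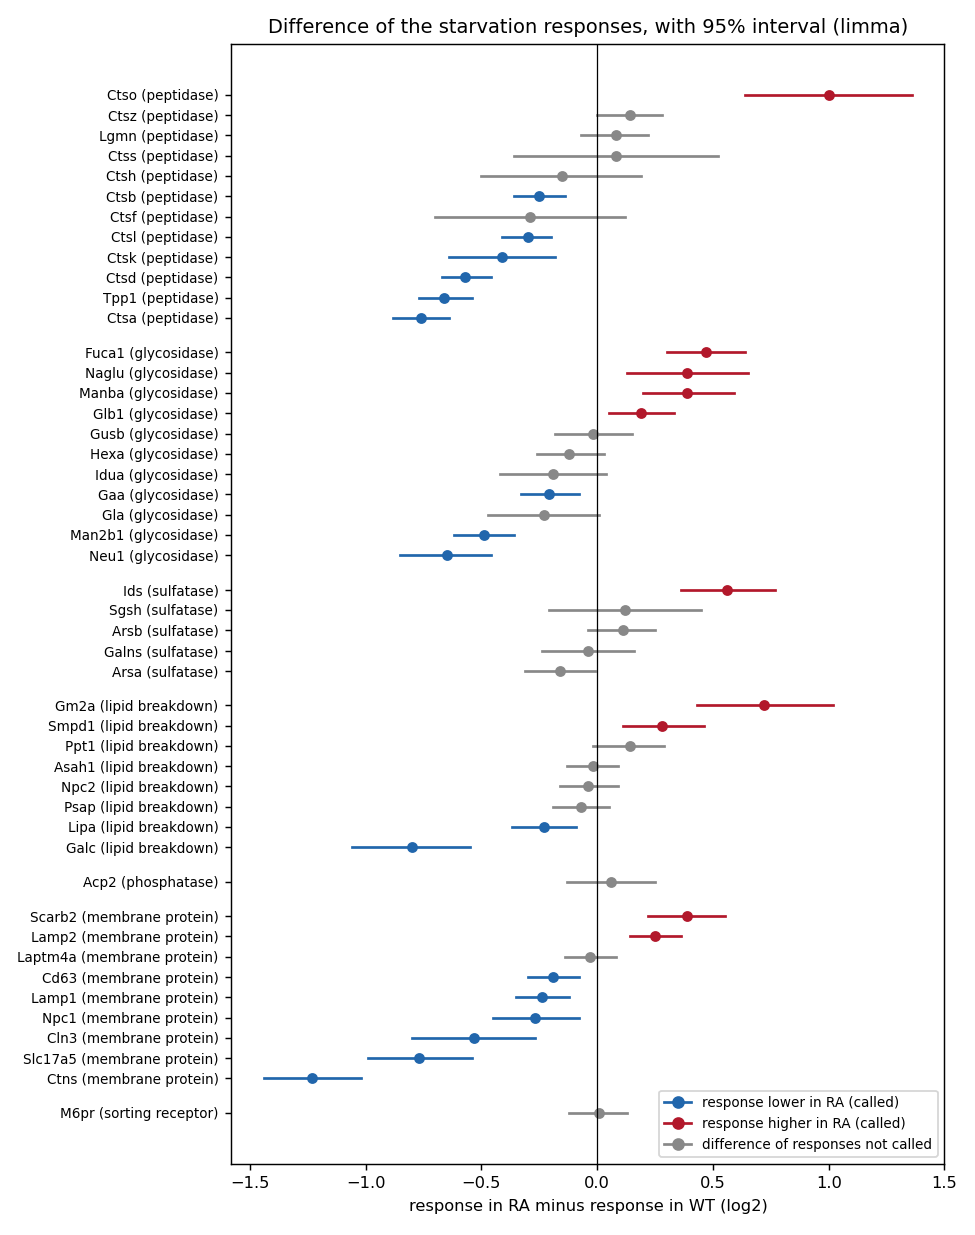
Difference of the starvation responses (RA minus WT, log2) for each of the 47 genes with its 95% interval from limma, grouped by role. Ctns stands at -1.23 and Ctso at 1.0, and 20 intervals belong to genes whose difference was not called.

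In normal medium RA was compared with WT. By limma 18 of the 47 members were higher in RA and 0 were lower, and at an unadjusted p under 0.05 the counts were 24 and 0. On recovered reads edgeR called 18 higher and 0 lower, and DESeq2 16 and 0, with 9.58% and 8.62% of all genes called. Among all genes limma called 9.63%, 6.68% higher and 2.95% lower. The direction of that background depended on the scaling, since 69.4% of all calls were higher, but only 40.5% with equal column totals (10.4% of genes called). The members' share of 38.3% higher was thus above the background, yet the differences were small, with a median of 0.11 against 0.01 over all genes and none of 2-fold. Among called members Npc2 had the largest, at 0.42 (SE 0.043, limma BH-adjusted p = 3.85e-06), followed by Fuca1 at 0.29, and Gla and Hexa at 0.28. The call of Gla was lost under 9 of 17 alternatives, at 0.24 to 0.30. Ctso, at 0.36 (limma BH-adjusted p = 0.0693), was not called. Those with the smallest called differences were Lamp2 at 0.14, Ctsa at 0.15 and Lamp1 at 0.16. By role the higher members were 6 peptidases, 4 glycosidases, 2 genes of lipid breakdown, 5 membrane proteins and M6pr, and no sulfatase was among them. This count moved with the processing. It was 13 with equal column totals, 10 without the filter on low values and 3 without the mean-variance trend. The share of all genes called in these settings was 10.4%, 2.07% (of 31407 genes) and 3.63%, against 9.63%. The count also fell when normal WT replicate 1 was left out.

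Under starvation the genotypes differed in both directions. RA was higher for 18 members and lower for 16, where 62.9% of all genes were called, 30.8% higher and 32.1% lower. The members' shares of 38.3% and 34.0% stood near that background, and their median was 0.01 against -0.01. Lower in RA were 6 peptidases, 4 membrane proteins, 3 glycosidases, 2 genes of lipid breakdown and 1 sulfatase. The lowest differences were those of Ctns at -1.37 (SE 0.071, limma BH-adjusted p = 3.73e-11), Galc at -0.91 and Slc17a5 at -0.69. In linear terms starved RA held 0.378 of the Ctns level of starved WT, 0.52 of that of Galc and 0.607 of that of Slc17a5. Higher in RA were Ctso at 1.37 (SE 0.12, limma BH-adjusted p = 4.06e-08), Gm2a at 0.96 and Fuca1 at 0.76, with starved RA at 3.23, 2.05 and 1.73 times starved WT. Ctsf, at -0.32 (limma BH-adjusted p = 0.05), sat at the threshold and was not called under 12 of 17 alternatives.

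Taking both media, 10 members were higher in RA in each, namely Ctsz, Fuca1, Hexa, Lamp2, Laptm4a, Lgmn, M6pr, Npc2, Ppt1 and Scarb2. Of their calls in normal medium, those of Npc2 and Fuca1 held under all 17 alternatives at the same threshold and the other 8 were lost under at least 1. For Ctsa, Ctsd and Ctsl the sign turned, from higher in RA in normal medium to lower under starvation. The call of Ctsa in normal medium was lost under 9 of 17 alternatives, with differences of 0.09 to 0.15, among them leaving out either normal WT library, normal RA replicate 2 or either starved RA library. That of Ctsd was lost under 2 of 17, one of them without normal WT replicate 1 (0.17), and that of Ctsl under 1. The call of Ctsl under starvation (-0.10) was lost under 7 of 17, including without any 1 of the 4 starved libraries, and the difference was then between -0.10 and -0.07. Another 13 members were called only under starvation and lower, and 8 only under starvation and higher. The shares of all genes in these joint classes were not computed, so the counts have no background beside them. The comparisons in the 2 media use separate libraries. The 8 members called in neither were Acp2, Asah1, Ctsh, Ctss, Galns, Gusb, Psap and Sgsh.

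**Figure D5:**
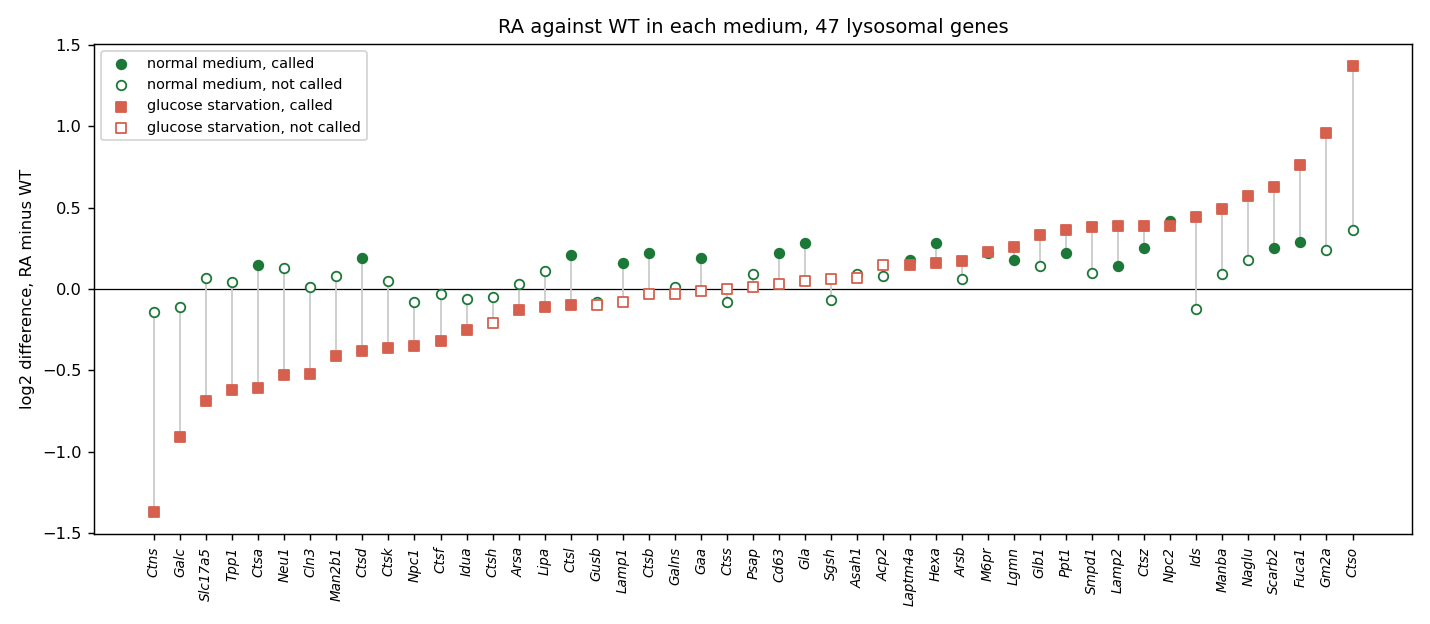
RA minus WT (log2(CPM + 1)) for the 47 genes in normal medium (circles) and under starvation (squares), filled where called, ordered by the difference under starvation. In normal medium all 18 filled circles lie above 0, and under starvation the squares run from -1.37 for Ctns to 1.37 for Ctso.

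A second list held 46 other lysosomal genes, such as further transporters, hydrolases and trafficking proteins, of which 45 passed the filter. In WT 34 rose and 6 fell, and in RA 33 rose and 4 fell, with medians of 0.95 and 0.64. These were 75.6% and 13.3% of the list in WT, against 39.3% and 39.2% of all genes. In RA they were 73.3% and 8.89%, against 35.0% and 33.7%. This list too was chosen with earlier results of these data known. The interaction was lower for 24 (53.3%) and higher for 6 (13.3%), against 26.1% and 24.5% of all genes. Its median was -0.25, against -0.07 for the 47 members and -0.01 over all genes. Creg1, a secreted glycoprotein found in lysosomes, had the lowest interaction at -1.34 (SE 0.14, limma BH-adjusted p = 7.94e-07), with 3.0 and 3.55 CPM in WT with glucose and 26.7 and 26.1 without it, against 4.37 and 5.04 and then 13.3 and 13.6 in RA. Slc26a11, a sulfate transporter, followed at -1.01. Abca2, a lipid transporter, and Mfsd8, a membrane protein altered in another ceroid lipofuscinosis, had the highest, at 0.59 and 0.54.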

How the data were processed

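PolyA RNA was profiled in 8 libraries with the TruSeq kit on an Illumina HiSeq instrument. Reads were mapped by the authors with TopHat2 2.0.9 to mm9, and their notes also name bedtools and edgeR. The gene counter, annotation and handling of strand are not given in the sources used here. The authors deposited a signal per gene, namely reads divided by a library size scaled per sample (CPM). The values were expected to be plain CPM, but column sums ran from 965845 to 1029723. In every library 100% of values were a whole number of reads within 0.01 read, and totals of 43205841 to 56363034 reads were recovered. Of values of 1 to 9 reads 78.2% to 80.5% were even. The study sequenced paired ends, so both ends of a fragment may have been counted, which was not tested. The recovered reads may then not be independent counts. A count of 3 reads, taken as the floor, equals 0.0548 to 0.069 CPM, and covers counting error only.

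Genes with at least 1 CPM in at least 2 libraries were kept (16232, all 47 members among them). limma 3.58.1 in R 4.3.3 was run on log2(CPM + 1) with a mean per group for all 8 libraries, a mean-variance trend, 2-sided tests and BH adjustment over all genes, and was tested on simulated data. Each of 5 contrasts was called at an adjusted p under 0.05. Alternatives covered the pseudocount (0.1), filter, scaling, groups in the fit, a replicate block, the variance trend, the threshold (1e-05), leaving out each library, and edgeR 4.0.16 and DESeq2 1.42.0 on the recovered reads. Named members were the 3 highest and 3 lowest called in each contrast, those called in opposite directions in WT and RA, and those listed by the study. Other members are given by role. Of the other lysosomal genes the 2 highest and 2 lowest called interactions were named. Exon lengths and overlaps came from GENCODE M21 (GRCm38) and promoters from RefSeq (GRCm38.p6), neither being the mapping build. Members and lists were chosen with earlier results of these data known.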

Additional observations from a re-analysis of the deposited data

Results flagged for a closer look

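For 27 members the response to starvation differed between RA and WT by the test of the interaction (limma BH-adjusted p under 0.05), against 50.6% of all genes. The response in RA less that in WT, on the log2(CPM + 1) scale, was lower for 6 peptidases, at -0.76 for Ctsa, -0.66 for Tpp1, -0.57 for Ctsd, -0.41 for Ctsk, -0.30 for Ctsl and -0.25 for Ctsb. Among glycosidases it was -0.65 for Neu1, -0.49 for Man2b1 and -0.21 for Gaa. Among genes of lipid breakdown it was -0.80 for Galc and -0.23 for Lipa. Among membrane proteins it was -1.23 for Ctns, -0.77 for Slc17a5, -0.53 for Cln3, -0.27 for Npc1, -0.24 for Lamp1 and -0.19 for Cd63. The difference had the other sign for Ctso (1.0), Gm2a (0.72), Ids (0.56), Fuca1 (0.47), Manba (0.39), Naglu (0.39), Scarb2 (0.39), Smpd1 (0.28), Lamp2 (0.25) and Glb1 (0.19). At the same threshold the calls of Npc1 and Glb1 were each lost under 7 of 16 alternatives, that of Gaa under 3, that of Cd63 under 2 and those of Lipa and Naglu under 1 each.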

How the results depend on the processing

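Across 17 alternatives at the same threshold (16 for the interaction) no called member changed sign. The call held under each of these for 40 of 43 members for starvation in WT, 38 of 42 for starvation in RA, 2 of 18 for RA against WT in normal medium, 27 of 34 under starvation and 21 of 27 for the interaction. At an adjusted p under 1e-05 the members called were 30 higher and 5 lower for starvation in WT, 28 higher and 2 lower for starvation in RA, 1 higher and 0 lower for RA against WT in normal medium, 8 higher and 8 lower under starvation, and 0 higher and 5 lower for the interaction. The shares of all genes called at this threshold were 45.6%, 30.6%, 0.869%, 22.2% and 10.9% in the same order. For the interaction 64.2% of the calls over all genes were higher. The 18 members higher in RA in normal medium became 10 without the filter and 3 without the variance trend. The share of all genes called there went from 9.63% to 2.07% and 3.63%. Leaving out 1 library gave 32 higher and 8 to 11 lower for starvation in WT, 34 to 38 higher and 4 to 5 lower for starvation in RA, 8 to 18 higher and 0 lower for RA against WT in normal medium, 17 to 19 higher and 11 to 15 lower under starvation, and 9 to 11 higher and 15 to 18 lower for the interaction. The 8 in normal medium came without normal WT replicate 1. The cause was not tested.

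Of the members' differences 27 changed sign under some alternative, and none of these was called. The 18 that belong to members not named for that comparison reached at most 0.06 in size on the other side of 0. The other 9 follow. For RA against WT in normal medium Cln3 gave -0.0022 with median-ratio scaling and -0.03 with equal column totals, and Tpp1 gave -0.01 with equal column totals. Under starvation Ctss gave -0.0025 with median-ratio scaling and with DESeq2. For the interaction Gusb gave 0.06 with equal column totals and 0.01 with edgeR, and Npc2 gave 0.04 with equal column totals. Without 1 library the values ran from -0.06 to 0.08 for Cln3, -0.22 to 0.17 for Ctsf and -0.24 to 0.08 for Ctss in normal medium, from -0.14 to 0.15 for Ctss and -0.0022 to 0.11 for Gla under starvation, and from -0.08 to 0.24 for Ctss, -0.09 to 0.06 for Gusb and -0.08 to 0.01 for Npc2 for the interaction.

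The labels number replicates 1 and 2 in each group, but same-numbered libraries correlated between -0.00764 and 0.157 in their deviations from the group means over all genes, and between -0.0272 and 0.303 over the 10498 genes with a mean above 10 CPM. Neither set exceeded 0.1 for every pair, although 3 of 6 pairs did over the abundant genes, so the numbers were not taken to pair the libraries. With the replicate block the members called were 32 higher and 11 lower for starvation in WT, 38 and 5 in RA, 19 and 0 for RA against WT in normal medium, 19 and 16 under starvation, and 10 and 17 for the interaction. The shares of all genes called with the block were 79.6%, 70.3%, 12.7%, 64.7% and 52.8% in the same order. With 2 libraries per group, precision rests on a spread shared across groups. Replicates differed beyond counting noise, with a chi-square per degree of freedom from 3.49 in normal WT to 16.8 in starved RA.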
